A study of Mus musculus with 39 samples.

Results

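The Hippo pathway genes examined here are Yap1, Wwtr1, Tead1, Tead2, Tead3, Tead4, Lats1, Lats2, Fat4 and Vgll4, and their binding by RBPJ and Notch was read from Targeted DamID (TaDa) peaks of the embryonic mouse cortex. A consensus peak was given to one of these 10 genes when its nearest protein-coding start site on mm10 belonged to that gene, and 43 of the 20811 deposited consensus peaks were, 20809 of which lie on the nuclear chromosomes. TaDa marks binding with Dam, a bacterial methylase, which is tethered to the protein under study and methylates the GATC sites around it. Fragments cut at methylated sites are then recovered by PCR for sequencing. Wild-type MF1 embryos received the plasmids by in utero electroporation at E13.5, and cortices were taken at E14.5, after 24 h. In radial glial cells (RGCs) the fusions were driven by a Hes5 promoter fragment, and in intermediate progenitor cells (IPCs) by a Tuba1a promoter fragment (pTα1). Each cell type is therefore defined by the promoter on the plasmid, and the DNA came from every cell of the dissected tissue that carried methylated fragments.

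The RBPJ fusion carried human RBPJ1, with 3 samples for RGCs and 3 for IPCs. Mouse Notch was profiled in 4 samples of each cell type. All 4 IPC samples of Notch carried NICD, the free intracellular domain, whereas 2 of the RGC samples carried NICD and 2 carried NdECD, a Notch without its extracellular domain. All fusions were supplied on plasmids, and the study calls the expression of Notch in IPCs ectopic. The Notch calls therefore show where this supplied Notch was detected, not where the cells' own Notch was bound. Dam alone, without a fusion partner, was profiled in 5 RGC samples and 4 IPC samples, and within a cell type both fusions were compared with these same controls. The deposited data are 4 pooled peak lists, named here RGC RBPJ, RGC Notch, IPC RBPJ and IPC Notch, and 1 file of consensus peaks, made by the study by merging the lists where they overlap and dividing the result into 8 k-means clusters. The study describes clusters 2, 6 and 7 as bound by both proteins in both cell types, and cluster 4 by both in RGCs. Cluster 1 is described as Notch alone in RGCs, 5 and 8 as RBPJ alone in RGCs, and 3 as RBPJ alone in IPCs. Clusters rest on binding intensities, so a peak of a cluster need not be called in each matching list. A list holds only regions that the study called in every pair of a fusion and a Dam-only sample, so a peak that is not in a list was not called under that rule, which does not show that the protein was not bound. The files hold positions only, without peak heights or values per sample. No test between conditions was therefore possible, and the depth of the samples is unknown. Beside each share stands its 95% Wilson interval, which reflects the number of peaks counted and not the spread between embryos. It also treats the peaks as independent, although several often lie in the same gene.

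The Hippo pathway is a kinase cascade that restrains growth. Lats1 and Lats2 phosphorylate the coactivators Yap1 and Wwtr1 (also called Taz) and keep them out of the nucleus. Unphosphorylated Yap1 and Wwtr1 bind the Tead factors, which have little activity of their own, and Vgll4 competes with the coactivators for the same Tead factors. Fat4 is a giant protocadherin that acts upstream as the receptor of the Dachsous cadherins. In the embryonic cortex Yap1 is known to act in the progenitors at the ventricle, and loss of Fat4 disturbs progenitors and neuronal migration. Notch is cleaved on activation, and its intracellular domain enters the nucleus and joins RBPJ on DNA.

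The stretches below show the DNA under the peaks on which the results turn. For each gene the window is the 120 bases outside annotated exons that hold the most TTCCCA and GGAATG words, counted on both strands, in the peak called in most lists. Where peaks tied, the one nearest to a start site was taken, which for Vgll4 is peak 8 and not peak 7, and where windows of a peak tied, the leftmost. The windows of Wwtr1, with 1 GGAATG and no TTCCCA word, and of Tead4, with 1 TTCCCA word, are not shown. TTCCCA is the core of the RBPJ site and GGAATG the core of the Tead site. Capitals mark these words, which read TGGGAA and CATTCC where they lie on the other strand. All stretches are the plus strand of the mm10 reference, not the sequence of the MF1 embryos, and a word is a match of letters only.
Yap1 peak 2, intron, chr9:8003227-8003346: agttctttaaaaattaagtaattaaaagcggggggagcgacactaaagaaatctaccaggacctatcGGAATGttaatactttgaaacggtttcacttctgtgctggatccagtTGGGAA
Tead1 peak 7, intron, chr7:112843543-112843662: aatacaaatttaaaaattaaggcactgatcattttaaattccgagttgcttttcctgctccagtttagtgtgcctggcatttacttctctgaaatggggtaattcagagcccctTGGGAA
Tead2 peak 1, upstream of the gene, chr7:45213011-45213130: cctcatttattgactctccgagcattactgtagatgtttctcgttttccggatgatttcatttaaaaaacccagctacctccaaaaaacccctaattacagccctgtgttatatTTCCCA
Lats2 peak 3, upstream of the gene, chr14:57760347-57760466: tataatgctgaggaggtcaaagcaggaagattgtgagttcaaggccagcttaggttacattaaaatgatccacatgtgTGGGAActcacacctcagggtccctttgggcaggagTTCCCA
Fat4 peak 4, intron, chr3:38913800-38913919: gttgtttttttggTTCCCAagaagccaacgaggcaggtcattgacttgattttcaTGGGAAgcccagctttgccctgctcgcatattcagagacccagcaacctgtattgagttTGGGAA
Vgll4 peak 8, intron, chr6:114915664-114915783: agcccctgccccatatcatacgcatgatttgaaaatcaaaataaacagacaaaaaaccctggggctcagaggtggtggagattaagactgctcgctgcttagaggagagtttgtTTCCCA

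Peaks are numbered within a gene along the chromosome. The Fat4 window, which lies wholly under an RGC RBPJ and an IPC Notch peak, held 3 TTCCCA words and no GGAATG. The Lats2 window held 2 TTCCCA words, 1 on each strand. The Yap1 window held 1 word of each kind. The windows of Tead1, Tead2 and Vgll4 held 1 TTCCCA word each. The list peaks that wholly cover these other windows are RGC peaks, of RBPJ at Yap1, Tead2 and Lats2, of Notch at Tead1 and of both at Vgll4.

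Consensus peaks were given to 8 of the 10 genes. Among all 21853 protein-coding genes with a start site, 40.1% had at least 1 consensus peak. In RGCs, 7 of the 10 genes had an RBPJ peak (31.9% of all protein-coding genes) and 5 a Notch peak (11.8%). In IPCs, 5 had an RBPJ peak (16.6%) and 4 had a Notch peak (7.04%). Tead3 and Lats1 had none. The single peak of Tead4 was lost, which left 7 genes, when all annotated genes competed, when peaks were assigned by gene body, and when start sites of all transcripts of protein-coding genes were used. The genes were chosen with earlier results of these data known, so these counts describe them and do not support a preference for the pathway.

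**Figure D1:**
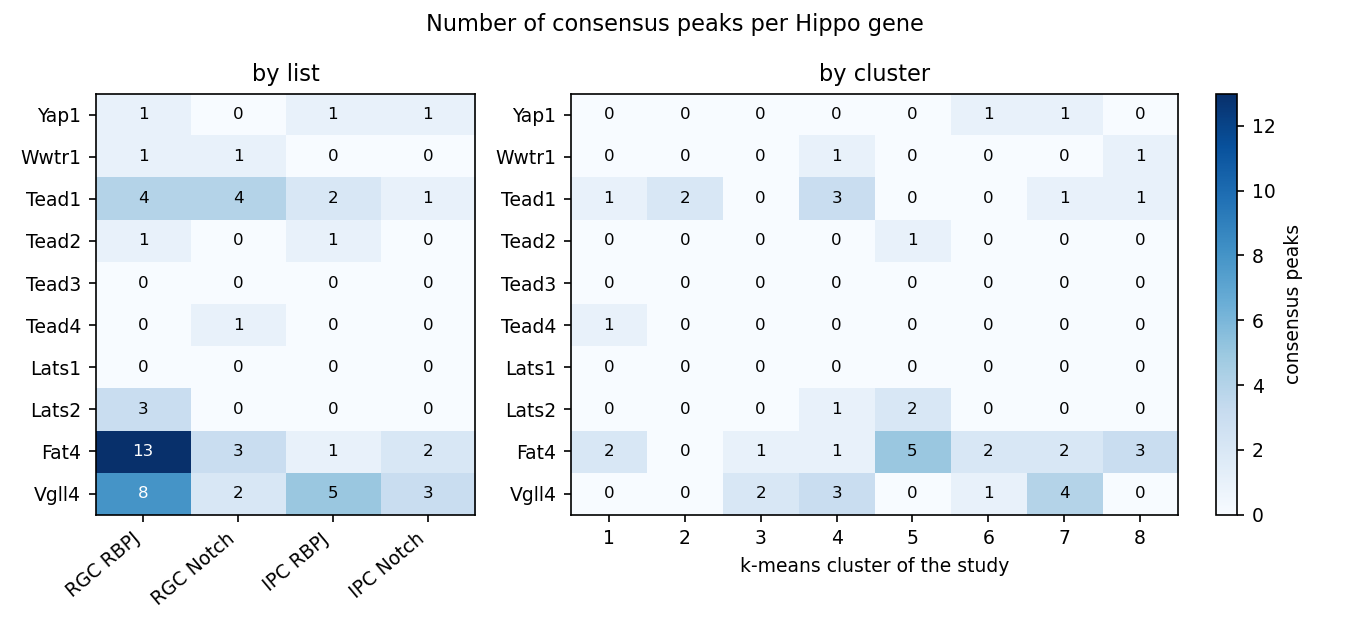
Number of consensus peaks per Hippo gene, by the list that called them (left) and by k-means cluster (right), with darker blue for more peaks. Fat4 with 16 and Vgll4 with 10 hold most peaks, and the rows of Tead3 and Lats1 are 0 throughout. A peak called in several lists counts once in each of them.

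The peaks were unevenly spread over the genes. Fat4 had 16 consensus peaks, Vgll4 10, Tead1 8, Lats2 3, Yap1 2, Wwtr1 2, Tead2 1 and Tead4 1. Of all protein-coding genes, 0.384% had as many consensus peaks as Fat4 or more, 1.17% as many as Vgll4 and 1.94% as many as Tead1. The median protein-coding gene with any peak had 1. Such a count depends on the territory, the sequence that lies nearer to the gene's start sites than to those of any other gene. The territory was 1023 kb for Fat4, 257 kb for Tead1, 214 kb for Vgll4, 119 kb for Tead4, 113 kb for Wwtr1, 95.6 kb for Lats2 and 86.3 kb for Yap1. The genes without a peak had short territories, 27.4 kb for Lats1 and 14.0 kb for Tead3, although that of Tead2 was also only 21.1 kb.

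Per 100 kb of territory, Tead2 had 4.74 consensus peaks, Vgll4 4.67, Lats2 3.14, Tead1 3.11, Yap1 2.32, Wwtr1 1.77, Fat4 1.56 and Tead4 0.842. Over the whole nuclear genome there were 0.763 consensus peaks per 100 kb, and over the joint territory of the 10 genes, 1.97 Mb, there were 2.18. Fat4, first by count, was thus next to last among the 8 genes by density, and the Tead2 value rests on a single peak.

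**Figure D2:**
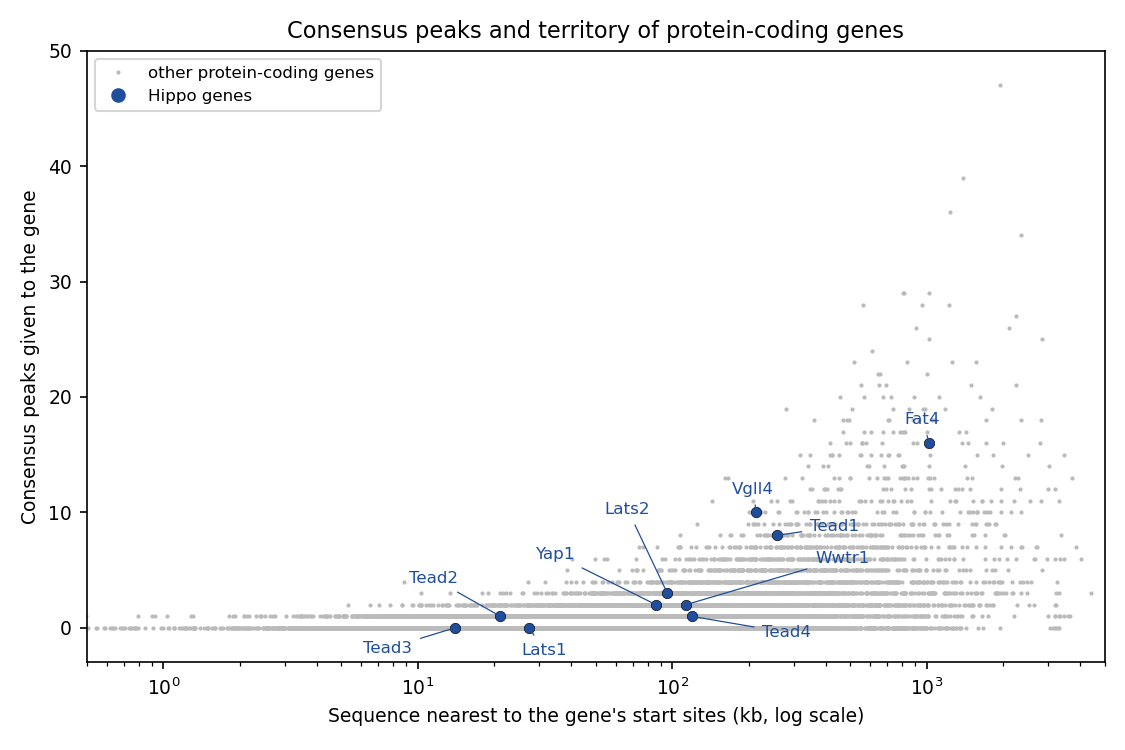
Consensus peaks given to each protein-coding gene against the length of its territory in kb on a log scale. Grey points are the other genes (153 with a territory under 0.5 kb are not drawn) and blue points the Hippo genes. The highest counts belong to genes with long territories, and among the Hippo genes Fat4, with the longest, has the most peaks.

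Yap1, the principal coactivator of the pathway, had a peak over a start site. Peak 2 (chr9:7999289-8003922, 4634 bp, cluster 7) was called for RBPJ in both cell types. The RGC RBPJ peak took its whole width, and the IPC RBPJ peak covered 3322 bp, or 71.7%. The start site inside it belongs to a shorter Yap1 transcript, and the 5′ end of the gene lay 0.674 kb outside the peak. Notch was not called there in either cell type, although the study describes cluster 7 as bound by both proteins in RGCs and IPCs. Peak 1 (chr9:7960009-7962429, 2421 bp, cluster 6) lay in an intron, 39.3 kb from the nearest coding start site of Yap1, and was called for Notch in IPCs only. With start sites of all transcripts counted, this distance was 3.39 kb. No consensus peak in the body of Yap1 was given to another gene.

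Wwtr1, the second coactivator, had a peak of RGC Notch over its 5′ end (peak 1, chr3:57573951-57576321, 2371 bp, cluster 4). Peak 2 (582 bp, cluster 8, RGC RBPJ) lay 35.3 kb upstream. Assignment to the nearest start site left out 3 consensus peaks that overlap the 3′ part of Wwtr1 and are closer to Tm4sf4, a neighbouring gene. One of these (chr3:57470198-57473254, 3057 bp, cluster 7) was called for RBPJ and Notch in RGCs and for Notch in IPCs. The other 2 were IPC RBPJ peaks of cluster 3. With peaks assigned by gene body, Wwtr1 therefore had 4 peaks and was called in all 4 lists.

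Tead1, a Tead factor, had 8 peaks, and all of them lay in the gene. They spanned 173 kb, with gaps between neighbours of 2.93 to 56.8 kb. Peaks 1, 3 and 4 lay 0.407, 0.259 and 0.210 kb from a start site, each of them another Tead1 start site, and were called in 1 list each (RGC RBPJ, IPC RBPJ and RGC RBPJ). RGC RBPJ and RGC Notch each called 4 of the 8 peaks, IPC RBPJ 2 and IPC Notch 1. Of the 4 RGC Notch peaks, 3 were called in no other list. Among all nuclear consensus peaks, RGC RBPJ also called 1616 of the 3688 called by RGC Notch. RGC Notch calls without RGC RBPJ were therefore not particular to Tead1.

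Peak 7 of Tead1 (chr7:112840074-112843951, 3878 bp, cluster 2) was called in 3 lists, RGC RBPJ, RGC Notch and IPC Notch. The RGC RBPJ peak was 2859 bp wide, the RGC Notch peak 3869 bp and the IPC Notch peak 1429 bp, and the IPC Notch peak lay inside both others. Its middle fell in an annotated exon, 80.5 kb from the closest coding start site of Tead1. A Tead1 transcript that is annotated as non-coding starts 0.440 kb from it. Peak 6 (chr7:112823797-112826458, 2662 bp, cluster 2) was called for RBPJ in RGCs over 2519 bp and in IPCs over 2662 bp. These were the only 2 of the 43 peaks in cluster 2. Towards the 3′ end of Tead1, 2 further peaks lay in the gene but nearer to a coding start site of Rassf10, an RGC Notch peak of cluster 1 and a peak of cluster 4 called for RBPJ and Notch in RGCs (chr7:112880493-112885833).

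The other Tead factors had few peaks. The only peak of Tead2 (chr7:45212665-45217889, 5225 bp, cluster 5) covered the 5′ end of the gene and 8 of its 9 coding start sites. It was called for RBPJ in both cell types, over 5225 bp in RGCs and 2548 bp in IPCs, and both list peaks covered the start sites. The peak of Tead4 (chr6:128320601-128322078, 1478 bp, cluster 1, RGC Notch) lay 19.8 kb upstream of the gene, over an exon of Tulp3. For Tead3 the nearest consensus peak of any gene lay 88.2 kb from its start sites.

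**Figure D3:**
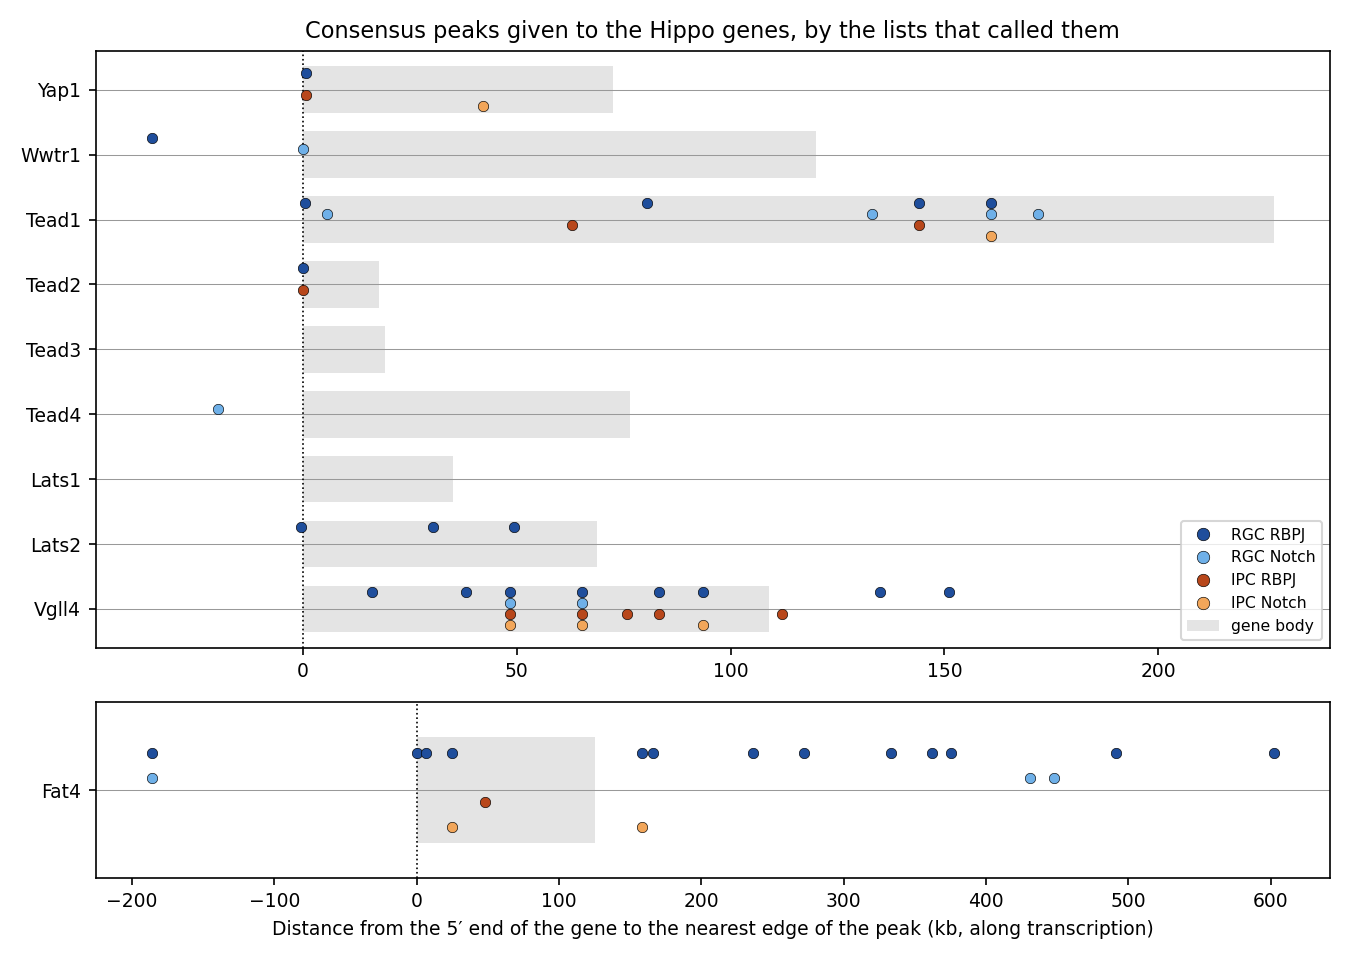
Position of each consensus peak relative to the 5′ end of its gene, in kb along the direction of transcription, with a dot for each list that called it and the gene body in grey. Fat4 has its own scale below. The dots of Tead1 all lie within the gene and those of Vgll4 within the gene or beyond its 3′ end, whereas 11 of the 16 Fat4 peaks lie downstream of the gene.

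The kinases differed. The 3 peaks of Lats2 were all RGC RBPJ peaks. Peak 3 (chr14:57758831-57761019, 2189 bp, cluster 4) lay 0.443 kb upstream of the gene. Peak 1 (chr14:57701689-57708975, 7287 bp, cluster 5) was the widest of the 43 and lay 1.80 kb from an internal start site, and peak 2 with 232 bp was the narrowest. Both internal peaks also lie within Gm49361, a predicted gene whose annotation overlaps Lats2. For Lats1, the nearest consensus peak of any gene lay 170 kb away.

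Vgll4, the Tead cofactor that competes with Yap1, had 10 peaks over 135 kb, of which 7 lay in its introns and 3 in introns of the neighbouring gene Atg7. Both proteins were called in both cell types at peaks 7 and 8, which are therefore in all 4 lists. They were 2 of the 43 peaks (4.65%, interval 1.28 to 15.5%), against 0.678% of all nuclear consensus peaks. Both lie in 1 gene, so they do not count as independent regions of the pathway. They were also wide, 7270 and 6641 bp, against a median of 1890 bp over all nuclear consensus peaks. A list counted from 1 bp of overlap, so wide merged peaks can collect more lists, and peaks of like width were not compared.

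Peak 7 of Vgll4 (chr6:114897538-114904807, 7270 bp, cluster 6) lay 17.0 kb from a start site. The RGC Notch peak took its whole width, and the RGC RBPJ peak was 3498 bp wide. The IPC RBPJ peak was 872 bp and the IPC Notch peak 899 bp wide. The left ends of the RGC RBPJ, IPC RBPJ and IPC Notch peaks lay at positions 114899601, 114899618 and 114899608. The stretch common to all 4 lists (chr6:114899618-114900489) took 872 bp, or 12.0% of the consensus peak, and held 2 TTCCCA words, no GGAATG and 4 GATC sites.

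Peak 8 of Vgll4 (chr6:114914886-114921526, 6641 bp, cluster 7) ended 0.295 kb from a start site inside the gene and lay 48.5 kb from the gene's 5′ end. The RGC RBPJ peak took its whole width and the RGC Notch peak 4653 bp, whereas the IPC Notch peak took 1092 bp and the IPC RBPJ peak 358 bp. The common stretch (chr6:114917100-114917454) was 355 bp, or 5.35% of the consensus peak, with no TTCCCA, 1 GGAATG and 2 GATC sites. The windows of 120 bases with the most words inside the 2 common stretches, chosen after their positions were seen, are shown with the same marking.
Vgll4 peak 7, common stretch, chr6:114899618-114899737: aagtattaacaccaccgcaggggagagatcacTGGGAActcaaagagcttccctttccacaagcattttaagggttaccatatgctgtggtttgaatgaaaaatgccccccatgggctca
Vgll4 peak 8, common stretch, chr6:114917100-114917219: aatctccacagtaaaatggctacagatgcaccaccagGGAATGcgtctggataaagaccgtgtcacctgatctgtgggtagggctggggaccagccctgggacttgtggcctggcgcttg

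The first of them holds a TTCCCA word on the minus strand next to its GATC site. The second holds a GGAATG word and a GATC site, but no TTCCCA word.

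Of the other Vgll4 peaks, peak 4 (chr6:114872833-114876436, 3604 bp, cluster 7) was called for RBPJ in RGCs and Notch in IPCs, with the IPC Notch peak 1603 bp wide. It covered no coding start site, but it covered one when start sites of all transcripts were counted. Peak 5 (chr6:114880951-114886827, 5877 bp, cluster 7) was called for RBPJ in both cell types, with the IPC peak 1621 bp wide. The remaining 6 were called in 1 list each, 4 of them in RGC RBPJ and 2 in IPC RBPJ. In RGCs, 8 of the 10 Vgll4 peaks were called for RBPJ and 2 for Notch, and in IPCs 5 were called for RBPJ and 3 for Notch. Vgll4 thus held 5 of the 10 IPC RBPJ peaks of the pathway genes and 3 of the 7 IPC Notch peaks. Among its IPC RBPJ peaks, however, peak 3 held 0 GATC sites in 2181 bp and peak 6 held 1 in 2046 bp.

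Fat4, the protocadherin receptor, had the most peaks but the most distant ones. Peak 2 (chr3:38884419-38890416, 5998 bp, cluster 7) covered its only coding start site and was called for RBPJ in RGCs. Peak 3 (1319 bp, cluster 5, RGC RBPJ) followed 6.52 kb into the gene. Peak 4 (chr3:38911755-38914737, 2983 bp, cluster 6), in an intron 24.8 kb from the start site, was called for RBPJ in RGCs over 2917 bp and for Notch in IPCs over 1717 bp. Peak 6 (chr3:39044600-39049561, 4962 bp, cluster 6), 158 kb from the start site and downstream of the gene, had the same lists, with 4937 bp for RGC RBPJ and 2327 bp for IPC Notch. Peak 1 (chr3:38698135-38700847, 2713 bp, cluster 5), 186 kb upstream, was called for both proteins in RGCs, from the same left end, over 2713 bp for RBPJ and 1564 bp for Notch.

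The remaining 11 peaks of Fat4 were called in 1 list each and ranged to 602 kb from the start site. RGC RBPJ called 13 of the 16 peaks, RGC Notch 3, IPC Notch 2 and IPC RBPJ 1. Only 4 of the 16 lay within 100 kb of the start site, and the rest fell in sequence without a protein-coding gene, where the nearest gene is a formal assignment. Among 1021 other genes with at least 5 consensus peaks, those whose counts over the 8 clusters were most like Fat4 were Plcl1 (cosine 0.987, 10 peaks), Celf4 (0.963, 11 peaks) and Dph6 (0.962, 7 peaks). The cosine compares the proportions of the clusters alone, and cluster 5, the largest in Fat4 with 5 peaks, is also the largest in the whole data set.

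**Figure D4:**
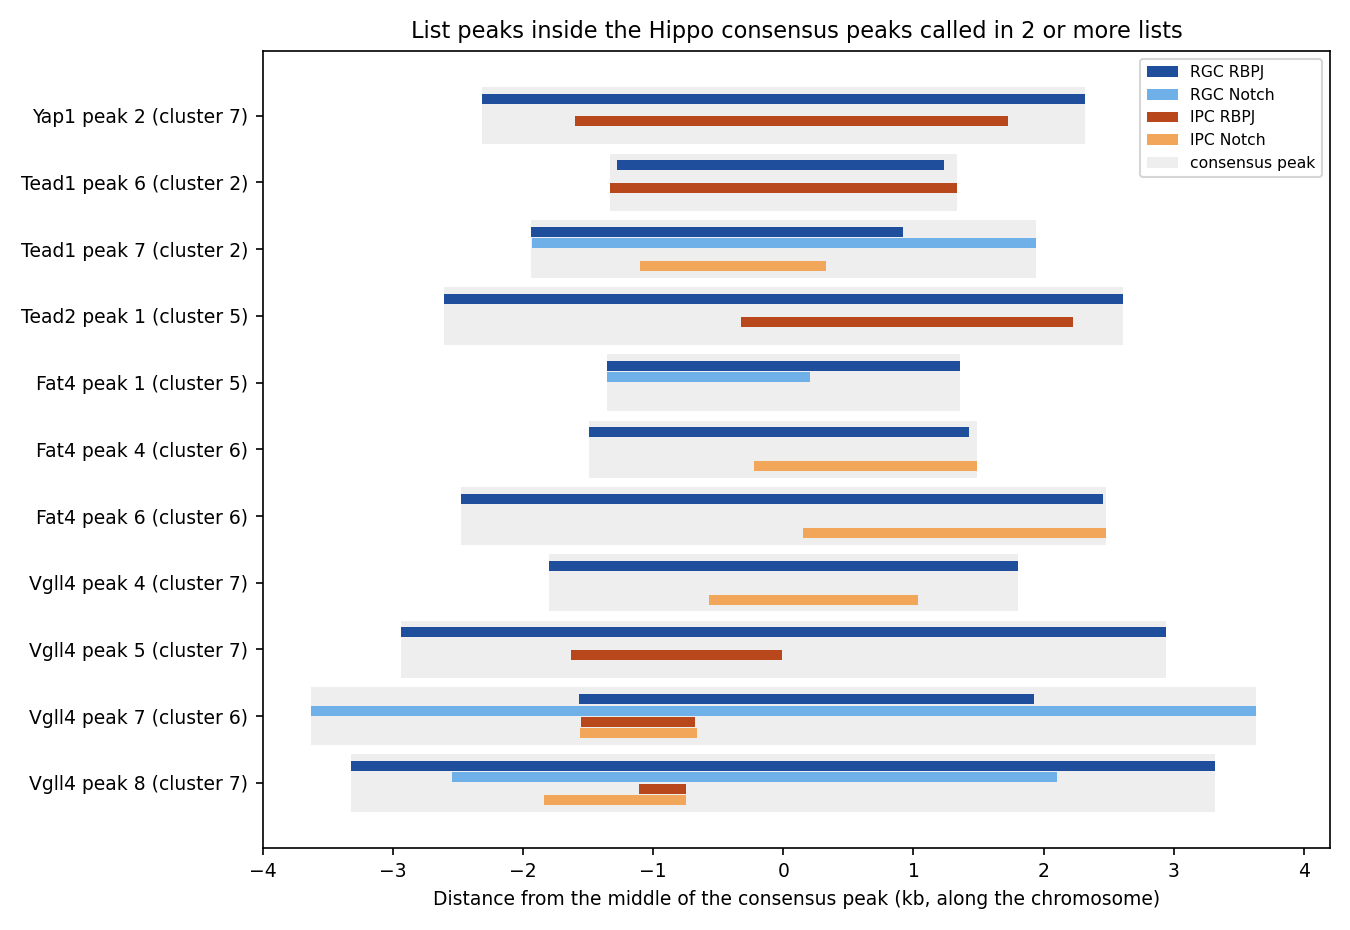
The 11 Hippo consensus peaks called in 2 or more lists, with the consensus peak in grey and the peak of each list as a coloured bar, in kb from the middle of the consensus peak along the chromosome. The IPC bars are shorter than the RGC bars in every peak with both, except peak 6 of Tead1.

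The IPC peaks were narrower than the RGC peaks at the same place. Of the 43 peaks, 10, in 5 genes, were called in at least 1 list of each cell type, and in 9 of these (90.0%, interval 59.6 to 98.2%) every IPC list peak was narrower than every RGC list peak. The exception was peak 6 of Tead1, with 2662 bp in IPCs and 2519 bp in RGCs. Over all nuclear consensus peaks called in both cell types, 1937 of 2395 (80.9%) had the narrower peak in IPCs, so the difference in width was not particular to the Hippo genes. Median widths of the whole lists were 1398 bp for IPC RBPJ and 1284 bp for IPC Notch, against 2059 bp and 2389 bp in RGCs. The cell types also differ in their Dam-only samples and Notch fusions, and a cause of the difference was not tested.

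Across the 43 peaks, the shares called in each list were near those of all consensus peaks. RGC RBPJ called 31 (72.1%, interval 57.3 to 83.3%, against 67.6% of all nuclear consensus peaks). RGC Notch called 11 (25.6%, 14.9 to 40.2%, against 17.7%). IPC RBPJ called 10 (23.3%, 13.2 to 37.7%, against 26.2%), and IPC Notch called 7 (16.3%, 8.12 to 30.0%, against 10.1%). All 4 intervals held the value over all peaks. Where the list peak had to cover at least 50% of the consensus peak, the IPC Notch share was 4.65%, against 6.78% of all peaks.

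Most peaks were called in 1 list only, 32 of the 43 peaks (74.4%, 59.8 to 85.1%, against 82.9%). Both proteins were called in RGCs at 4 peaks (9.30%, 3.68 to 21.6%, against 7.77%), which lie in Tead1, Fat4 and Vgll4, and in IPCs at 2 peaks (4.65%, 1.28 to 15.5%, against 2.36%), both in Vgll4. RBPJ was called in both cell types at 6 peaks (14.0%, 6.56 to 27.3%, against 6.85%), in Yap1, Tead1, Tead2 and Vgll4. At 3 peaks, 2 of Fat4 and 1 of Vgll4, the lists were RGC RBPJ and IPC Notch alone (6.98%, 2.40 to 18.6%, against 2.56%).

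**Figure D5:**
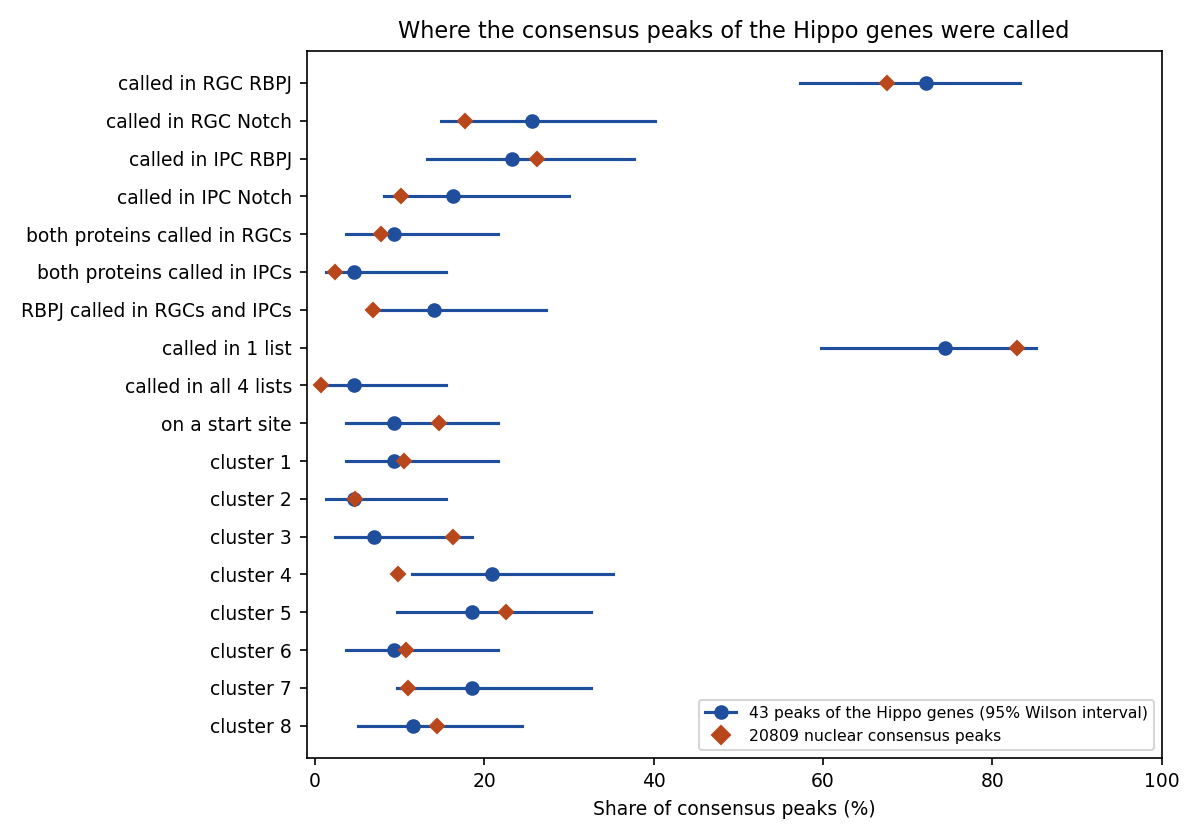
Share of consensus peaks in percent that fell in each list, combination of lists or cluster, for the 43 peaks of the Hippo genes (blue, with 95% Wilson intervals) and for all 20809 nuclear consensus peaks (orange diamonds). The diamond lies outside the interval for cluster 4 and for peaks called in all 4 lists, and inside it elsewhere. The intervals treat peaks of the same gene as independent.

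All 8 clusters were represented. Cluster 4 held 9 of the 43 peaks (20.9%, interval 11.4 to 35.2%, against 9.79% of all), of which 3 each were in Tead1 and Vgll4 and 1 each in Wwtr1, Lats2 and Fat4. The study describes this cluster as bound by both proteins in RGCs, but each of the 9 was called in 1 list, 6 in RGC RBPJ and 3 in RGC Notch. Clusters 5 and 7 held 8 each (18.6%, 9.74 to 32.6%, against 22.5% and 11.0%). Of the 8 peaks of cluster 7, 4 were in Vgll4, namely peaks 4, 5, 8 and 10, and those of cluster 5 lay in Fat4, Lats2 and Tead2. Cluster 8 held 5 peaks (11.6%, against 14.4%), all called by RGC RBPJ, as were 99.4% of all peaks of that cluster. Cluster 1 held 4 (9.30%, against 10.5%), all called by RGC Notch alone, as were 58.4% of the whole cluster. Cluster 6 held 4 (9.30%, against 10.8%), at Yap1, Fat4 and Vgll4, and each was called for Notch in IPCs, as were 48.3% of the whole cluster. Cluster 3 held 3 (6.98%, 2.40 to 18.6%, against 16.3%), all called by IPC RBPJ alone, as were 93.8% of the whole cluster. These were peaks 3 and 6 of Vgll4 and peak 5 of Fat4, with 0, 1 and 1 GATC sites in 2181, 2046 and 1703 bp. Dam methylates only GATC, so these calls rest on few or no methylatable sites inside the peak. The clusters were formed by the study from the binding of both proteins in both cell types, so that list and cluster are not independent measures. Of the shares of lists, list combinations, start sites and clusters, the interval left out the value over all peaks for cluster 4 and for peaks called in all 4 lists. These intervals treat peaks as independent. Of the 9 peaks of cluster 4, however, 3 lie in Tead1 and 3 were given to Vgll4, and both peaks in all 4 lists lie in Vgll4.

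Coding start sites were covered at Yap1, Wwtr1, Tead2 and Fat4. These 4 peaks were 9.30% of the 43 (3.68 to 21.6%, against 14.6% of all nuclear consensus peaks). A further 5, of Tead1, Lats2 and Vgll4, lay within 1 kb of a start site without reaching it. Together, 9 peaks lay on a start site or within 1 kb of one (20.9%, 11.4 to 35.2%, against 19.3% of all peaks). By their midpoint, 23 of the peaks lay in an intron (53.5%, 38.9 to 67.5%, against 47.3%), 13 in intergenic sequence (30.2%, against 38.8%), 5 in an exon (11.6%, against 8.05%) and 2 within 5 kb upstream of a start site (4.65%, against 5.85%).

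Word densities in the Hippo peaks were near those of all consensus peaks. TTCCCA occurred 153 times on both strands, or 1.26 per kb (Poisson 95% interval 1.07 to 1.48), against 1.17 per kb in all nuclear consensus peaks. It was held by 40 of the 43 peaks (93.0%, against 82.9% of all peaks). The share of peaks with a word depends on width, and the Hippo peaks had a median of 2397 bp, against 1890 bp. GATC sites, too, were held by more of them (97.7%, against 90.2%). GGAATG occurred 60 times, or 0.494 per kb (0.377 to 0.636), against 0.596, and 27 peaks held it (62.8%, against 64.7% of all peaks). Peak 7 of Vgll4 held the most of both words, 11 TTCCCA and 9 GGAATG in its 7270 bp. At 10 places in 9 peaks a TTCCCA and a GGAATG word overlapped, as the 2 share letters. TAATTA, a core of homeobox sites, occurred at 0.428 per kb (0.320 to 0.562), against 0.358, and GATC, the site that Dam methylates, at 2.80 per kb (2.51 to 3.11), against 2.91. Head-to-head pairs of TGGGAA and TTCCCA with 15 to 17 bases between them, the arrangement on which Notch complexes can pair, occurred in none of the 43 peaks and in 0.231% of all peaks.

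Promoter sequences of 300 bases (250 before to 50 after a start site, RefSeq, GRCm38.p6) were available for 8 of the 10 genes. GGAATG was found on either strand in a promoter of 5 of them, Yap1, Wwtr1, Tead3, Lats2 and Vgll4, against 16.6% of 27025 genes, and TTCCCA in a promoter of 3, Tead2, Tead3 and Vgll4, against 28.3%. Genes with several promoters in the table have more chances to hold a word. Consensus peaks covered the promoters of Wwtr1, Tead2 and Fat4. Tead2 was the only one of these with a TTCCCA word in its promoter, under the RBPJ peaks of both cell types.

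Other genes of the pathway were read from a list of 34 genes, drawn up from general knowledge of the pathway. Of these, 22 had a consensus peak (64.7%, beside 40.1% of all protein-coding genes). The counts for these genes take no account of territory, which ranged from 11.8 kb for Mob1a to 1498 kb for Fat3. RBPJ was called at 18 of the 34 in RGCs (31.9% of all protein-coding genes) and at 14 in IPCs (16.6%), and Notch at 6 in RGCs (11.8%) and at 6 in IPCs (7.04%). In the core kinase cassette, 2 of 5 genes had a peak, Stk4 with 2 and Mob1a with 1, whereas Stk3, which encodes a kinase that activates the Lats kinases, and its adaptor Sav1 had none. Of the 13 upstream regulators 8 had a peak (61.5%, beside 40.1%), led by Wwc1 (Kibra), a scaffold protein, with 16 peaks. One of the Wwc1 peaks (chr11:36036105-36042458, 6354 bp, cluster 6) was called in 3 lists, RGC RBPJ, RGC Notch and IPC RBPJ, 55.6 kb from the start site.

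In the protocadherin branch, 4 of 6 genes had a peak (66.7%, beside 40.1% of all protein-coding genes). Fat3 had 13 and Fat1 7, of which 1 (chr8:44998247-45001394, 3148 bp, cluster 6) was called in RGC RBPJ, RGC Notch and IPC Notch. Dchs2 and Fjx1, the latter encoding a kinase of the Golgi, had 2 each, and Dchs1, the main ligand of Fat4, had none. Among the other Vgll cofactors, Vgll3 had 4 peaks and Vgll2 had 1, all RGC RBPJ, and Vgll1 had none. Neither Vgll2 nor Vgll3 had a peak in an IPC list.

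Of 7 genes known as transcriptional targets of Yap1 and the Tead factors, 6 had a peak (85.7%, beside 40.1% of all protein-coding genes). Ccn2 had 4, Ccn1 and Nuak2 3 each, Amotl2 2, and Ankrd1 and Axl 1 each. Nuak2, a kinase gene, had a peak called in all 4 lists (chr1:132316752-132322672, 5921 bp, cluster 4), which lay 0.626 kb from its start site. Across the 10 genes and these 34, the peaks called in all 4 lists were the 2 of Vgll4 and that of Nuak2.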

How the data were processed

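Per the labels and the study's methods, reads of in utero TaDa were mapped to mm10. With MACS2 the authors compared each fusion sample with each Dam-only sample, retained the broad peaks found every time, merged the lists to consensus peaks and clustered these. The deposited values are positions in bp. Scores are constant, there are 0 columns of single samples, and depth is unknown. Of the 39 samples, 14 lie behind the lists, 9 are their Dam-only controls and 16 were not analysed here.

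Start sites were those of protein-coding transcripts in GENCODE M21 (GRCm38). Peaks went to the gene with the nearest start site, and to each gene on a tie. A list counted as calling a consensus peak from 1 bp of overlap, which matched the file's own list names at all 20809 nuclear peaks. Python 3.11.15, numpy 2.4.6, scipy 1.17.1, pysam 0.24.0 and matplotlib 3.10.9 were used. Nearest start sites and word counts were tested on random regions and sequences and matched a direct search in 300 of 300 cases each. Named genes were all members, the pathway genes with a peak called in 3 or 4 lists or the most peaks in their role, and the 3 genes most like Fat4. Others are named as counts of 5 or fewer, chosen after their values were seen. Peaks were described singly where they cover a start site, were called in at least 2 lists, belong to cluster 6 or lie nearest to a start site. The members and lists were chosen with earlier results of these data known. Alternatives changed the assignment, width, distance, overlap, words and genes included.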

Additional observations from a re-analysis of the deposited data

How the results depend on the processing

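Taking the peak's midpoint, 1 start site per gene, peaks of at least 1000 bp, gene bodies or a limit of 100 kb left 43, 38, 36, 31 and 30 peaks, and competition from all annotated genes left 26. Start sites of all transcripts of protein-coding genes, added after seeing the data, gave 41, with 10 for Tead1, 7 for Vgll4 and 0 for Tead4. Per gene, counts that moved by over 1.5 times were those of Wwtr1 (1 to 4), Tead1 (5 with 1 start site per gene), Tead4 (0), Lats2 (1) and Fat4 (4). With at least 50% of the peak covered, the IPC Notch share fell to 4.65%. Without Fat4 and Vgll4, chosen after seeing the data, cluster 3 held 0%. Within 1 kb of a start site lay 9 peaks (20.9%, against 19.3% of all peaks) and within 5 kb 10 (23.3%, against 26.3%). On a start site lay 4 (9.30%, against 14.6%). In the central 500 bp TTCCCA reached 1.56 per kb, 1.32 times all peaks, against 1.08 over whole peaks and 0.886 with TTCCCAC, so the direction depends on the word. Other shares, densities and the pathway count stayed within their intervals or 1.5 times. No paired analysis was possible because the lists are pooled over samples, and no replicate could be left out. Depth could not be read from the lists.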
